A study of Homo sapiens with 6 samples.

Results

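The 10 glycolysis genes described here are SLC2A1, HK2, PFKP, ALDOA, GAPDH, PGK1, PGAM1, ENO1, PKM and LDHA. They were chosen by symbol, and all 10 were found among the 36601 genes of the deposited matrices, with UMIs in every library. The series measured single-cell RNA with Seq-Well S3, a method that captures each cell beside a barcoded bead in a microwell, in the established human neuroblastoma cell line SK-N-BE(2)-C. Its 6 libraries form 3 groups of 2: cells given DMSO (the solvent control), cells given TSA (the usual abbreviation of trichostatin A, which blocks the enzymatic activity of histone deacetylases) and cells given E6R. By its title the series concerns a compound that inhibits a histone deacetylase complex without acting on the enzyme. The sources used here give no dose, time or structure for E6R. All groups share the one cell line, and the labels name no genetic change. The labels do not say whether the 2 libraries of a group came from separate cultures, so p-values measure only the spread between these libraries, which may be technical.

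Glycolysis breaks glucose down to pyruvate in the cytosol. A membrane transporter brings glucose in, the early enzymes spend ATP to phosphorylate and split it, and the later enzymes return ATP and NADH. Lactate dehydrogenase turns pyruvate to lactate and restores NAD+, a route that many tumour lines use even with oxygen present, and several of these genes are textbook targets of the hypoxia-inducible factors.

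Barcodes with at least 500 genes and at most 20% of UMIs (unique molecular identifiers, each counted as 1 captured RNA) from mitochondrial genes were kept as cells, 17589 in all and 1861 to 3946 per library. Sums over the cells of a library held 4206366 to 26180262 UMIs, with the DMSO libraries the shallowest. The top 1% of cells by depth held 22.5% of all UMIs in E6R replicate 2 and 8.77% to 15.6% in the other libraries. Mitochondrial genes gave 5.83% and 6.20% of UMIs under DMSO, 6.08% and 9.71% under TSA, and 1.55% and 1.51% under E6R. Fits without these and the ribosomal protein genes, and with cells of at most 10% mitochondrial UMIs, were run as alternatives. Pairs of libraries shared between 11 and 58 cell barcodes, at most 2.11% of a library's cells. All 9 markers of neuroblastoma identity had UMIs in every library. Of 12 markers of other cell types, between 1 and 7 had no UMI in a given library, and their summed level was 90.7 and 26.8 CPM (UMI counts scaled to a common library size) under DMSO, 86.4 and 56.8 under TSA, and 135 and 11.1 under E6R. COL1A1, COL3A1 and PECAM1 made up most of that sum in all libraries but DMSO replicate 2, and CD3E, an immune marker, had 1 UMI in all 6 libraries. The liver gene ALB had 58 UMIs in DMSO replicate 2 and at most 2 in any other library. The part of these markers in the results was not tested.

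Summed over the 10 genes, the share of total UMIs did not separate the treated libraries from DMSO. They gave 1.27% and 0.899% of the cells' UMIs in the DMSO libraries, 1.17% and 1.09% under TSA, and 1.09% and 0.993% under E6R. Both TSA libraries and both E6R libraries lay between the 2 DMSO libraries. By a two-sided exact permutation test over libraries, p was 1 for TSA against DMSO, 1 for E6R against DMSO and 0.667 for E6R against TSA, each 1 after Benjamini-Hochberg adjustment over the 3 tests. With 2 libraries against 2 the smallest possible p is 0.33. GAPDH alone held 51.6% to 63.9% of the 10 genes' UMIs, and GAPDH, ENO1, PKM and PGK1 together held 93.7% to 97.0%, so the sum mostly follows these 4. These are shares of captured UMIs and were not scaled by transcript length.

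Single cells were compared next. With each cell thinned at random to 1000 UMIs, which left out 503 to 1718 shallower cells per library, the median cell held 12 and 9 UMIs of the 10 genes under DMSO, 11 and 11 under TSA, and 11 and 10 under E6R. The middle 90% of cells ran from 6 to 21 UMIs in DMSO replicate 1 and from 4 to 15 in DMSO replicate 2. For replicates 1 and 2 it ran from 4 to 20 and 5 to 18 under TSA, and from 5 to 18 and 3 to 17 under E6R. The variance of that count over its mean was 1.37 to 2.17 across libraries, where counting noise alone would give about 1. Thinned cells held a median of 4 of the 10 genes in E6R replicate 1 and 3 in the other libraries. Barcodes with under 500 genes gave the 10 genes 0.859% to 1.10% of their UMIs. These may hold free RNA, fragments or shallow cells, and which of these was not tested.

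**Figure D1:**
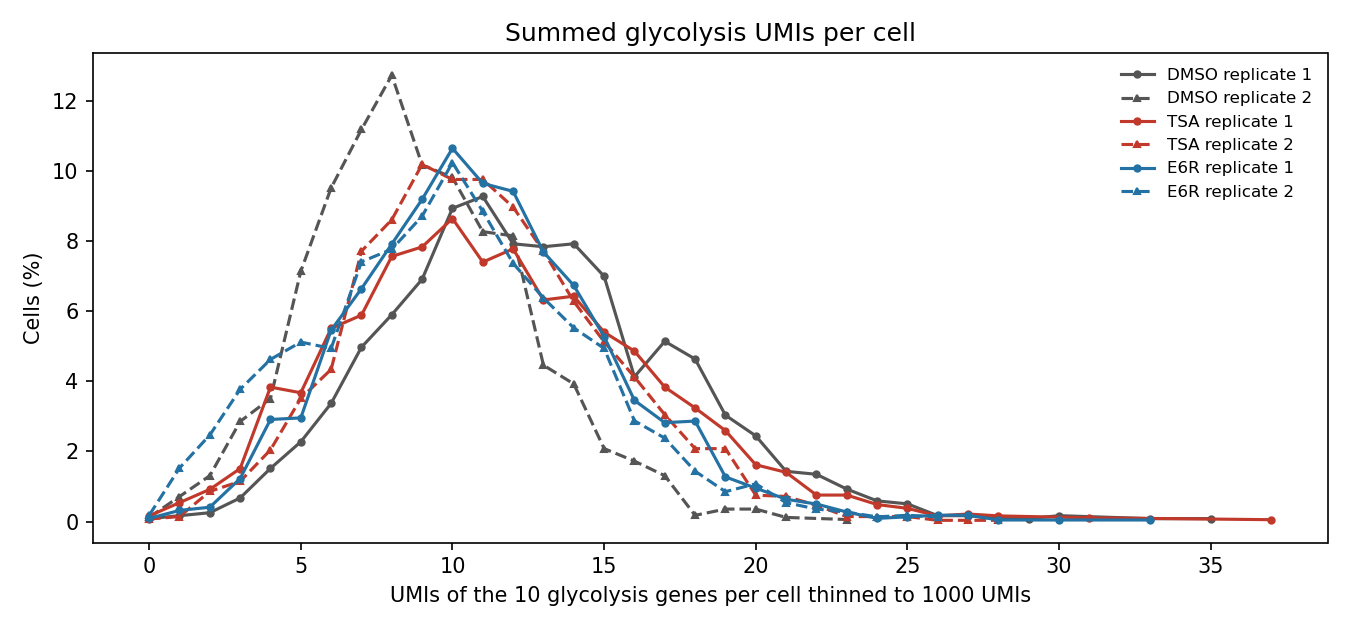
Share of cells (y, percent) by the number of UMIs of the 10 glycolysis genes in a cell thinned to 1000 UMIs (x); one line per library. The medians of the DMSO replicates are the farthest apart, at 12 and 9 UMIs, and the medians of the TSA and E6R libraries lie between them at 10 or 11.

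TSA against DMSO asked which of the genes an inhibitor of deacetylase activity changed. ALDOA, the aldolase that splits fructose 1,6-bisphosphate, and PKM, the pyruvate kinase of the last ATP-yielding step, rose under TSA. The other 8 did not pass the test. Thus 2 of 10 were called, both higher, where 29.7% of all 16763 genes tested were called and 16.2% were called higher. That share is near the background. None was called lower, beside 13.5% of all genes. The libraries of the 2 groups lay apart for 5 of the 10 upward (36.7% of all genes) and for 1 downward (34.6%), and for 71.3% of all genes in either direction. Called means an adjusted p under 0.05 in edgeR's quasi-likelihood test on the library sums, adjusted over all genes tested. All 10 passed the filter on low counts. Their median log2 fold change was 0.26, beside a median of -0.01 over all genes tested. With libraries scaled by total counts alone these medians were -0.058 and -0.32. Without DMSO replicate 1 they were 0.66 and 0.035, and without DMSO replicate 2 they were -0.028 and -0.054, so the sign of the 10 genes' median was not stable.

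The second comparison, E6R against DMSO, put that question to the other compound. None of the 10 genes was called, and none of the 16763 genes tested was (0%). Without adjustment 2913 genes had p under 0.05, ALDOA and PGAM1 among them, and DESeq2 called 415 genes and none of the 10. The fitted value was above 0 for 9 of the 10 genes, all but GAPDH, with a median of 0.36 beside 0.03 over all genes. In 6 of the 10, both E6R libraries lay above both DMSO libraries and in none did both lie below, where 24.6% of all genes lay apart upward, 22.7% downward and 47.3% in either direction.

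E6R against TSA compared the treatments directly. PGAM1, the phosphoglycerate mutase, was higher under E6R, and ALDOA and PKM were lower. These 3 of 10 stand beside 38.2% of all genes called, 18.7% higher and 19.5% lower. Libraries lay apart upward for 4 of the 10 (33.7% of all genes) and downward for 4 (38.9%), and for 72.6% of all genes in either direction. The 10 genes had a median log2 fold change of -0.01, and all genes tested had -0.09. The comparisons with DMSO share the DMSO libraries, and each pair of comparisons shares a group, so they are set side by side and not counted as separate evidence.

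**Figure D2:**
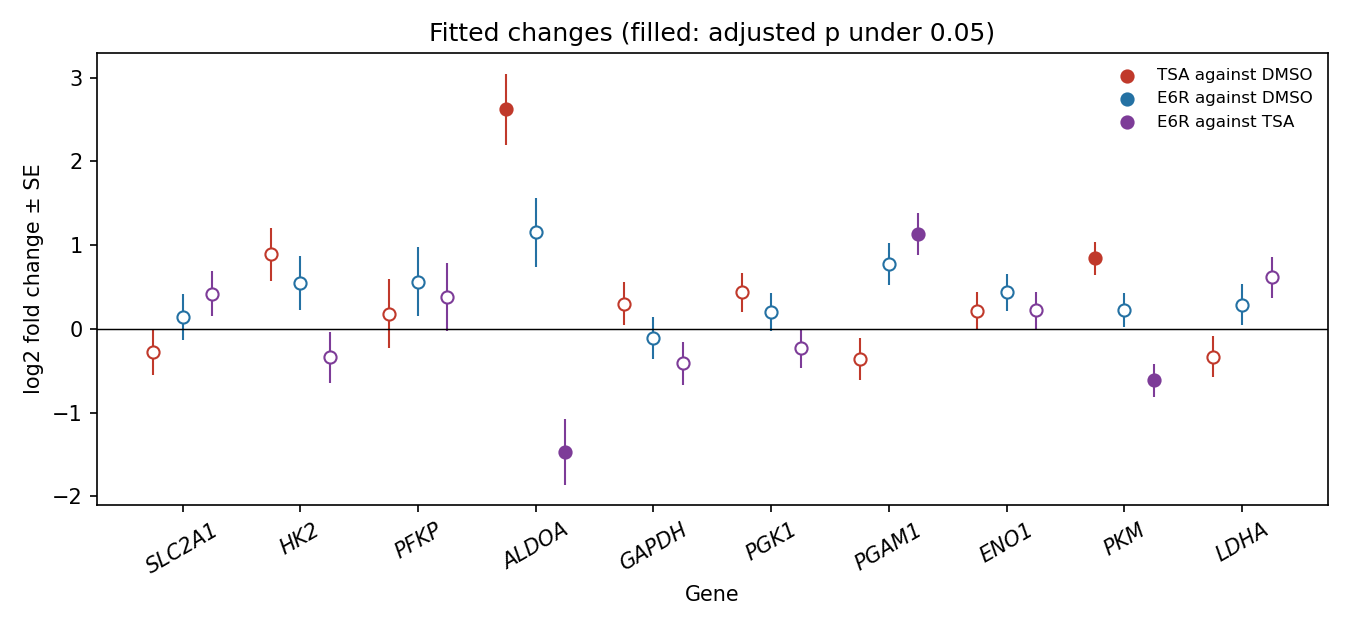
Fitted log2 fold change (y) of each gene (x) in the 3 comparisons, with standard errors as bars; filled points had an adjusted p under 0.05 in edgeR's quasi-likelihood test over all genes. Filled points are ALDOA and PKM for TSA against DMSO, and ALDOA, PGAM1 and PKM for E6R against TSA; no point is filled for E6R against DMSO.

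The promoters of ALDOA, PKM and PGAM1, the 3 genes called in a comparison, are shown with that of ALDOC, the aldolase C gene that rose under TSA as given further on. Each line is the 250 bases before a RefSeq transcription start (GRCh38.p14), on the strand of the gene; for ALDOA, which has 3 listed starts, the most downstream one is shown. Capitals mark GGGCGG, the GC box bound by SP1-type factors, and ACGTG or GCGTG, the core of hypoxia response elements, on either strand.
ALDOA: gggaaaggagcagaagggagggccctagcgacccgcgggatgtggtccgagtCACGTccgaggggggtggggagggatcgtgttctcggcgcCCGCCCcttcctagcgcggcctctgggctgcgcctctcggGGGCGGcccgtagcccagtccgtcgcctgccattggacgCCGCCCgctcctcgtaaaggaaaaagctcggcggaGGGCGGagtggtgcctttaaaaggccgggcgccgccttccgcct
ALDOC: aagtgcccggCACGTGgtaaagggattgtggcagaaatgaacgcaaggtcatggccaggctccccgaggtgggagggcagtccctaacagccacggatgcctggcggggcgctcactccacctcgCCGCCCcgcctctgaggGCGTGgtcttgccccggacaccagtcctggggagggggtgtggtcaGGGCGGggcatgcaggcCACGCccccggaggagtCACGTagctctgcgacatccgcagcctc
PKM: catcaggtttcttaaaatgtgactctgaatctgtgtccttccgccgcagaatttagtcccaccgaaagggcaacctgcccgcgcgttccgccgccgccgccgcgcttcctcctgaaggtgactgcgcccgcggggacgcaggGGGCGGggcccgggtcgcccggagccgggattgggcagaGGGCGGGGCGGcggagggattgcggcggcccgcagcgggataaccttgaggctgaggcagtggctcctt
PGAM1: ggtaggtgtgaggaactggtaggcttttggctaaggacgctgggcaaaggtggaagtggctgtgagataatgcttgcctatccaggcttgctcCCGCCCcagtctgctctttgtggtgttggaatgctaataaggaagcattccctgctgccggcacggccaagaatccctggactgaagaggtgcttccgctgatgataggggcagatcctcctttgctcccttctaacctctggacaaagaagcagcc

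These windows end at RefSeq starts, and all 4 lie inside the span that GENCODE 29 gives the gene, whose outermost transcripts start farther upstream. The windows lie at chr16:30065510-30065759 on the plus strand for ALDOA, chr17:28576896-28577145 on the minus strand for ALDOC, chr15:72231191-72231440 on the minus strand for PKM and chr10:97427568-97427817 on the plus strand for PGAM1. Their content of G and C was 70.8%, 68.4%, 68.4% and 54.8% in that order. ALDOA held 4 GGGCGG, ALDOC 2, PKM 3 (2 of them overlapping) and PGAM1 1. ALDOA held 1 ACGTG and ALDOC held 3 ACGTG matches and 2 GCGTG matches, 2 of the former in the single palindrome CACGTG; PKM and PGAM1 held neither. Over the 10 genes, GGGCGG was in a window of all 10, beside 46.2% of 27305 genes, and ACGTG or GCGTG in one of 7, all but PGAM1, PKM and SLC2A1, beside 47.4% of genes. Counting windows, of which the 10 genes have 17, these were 12 and 12 of 17, beside 42.6% and 43.2% of all 35116 windows in the table. A match is a run of letters and no measure of binding.

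SLC2A1 (ENSG00000117394; GRCh38 chromosome 1, 42925375 to 42959176, minus strand, protein coding) encodes GLUT1, the glucose transporter found on most cells. Its level was 49.5 and 31.4 CPM under DMSO, 38.0 and 28.7 under TSA, and 42.3 and 46.9 under E6R. Here and below, CPM use library sizes scaled by the trimmed mean of M-values (TMM), and values are given as replicate 1 and then replicate 2. The groups overlapped, apart from E6R lying above TSA. Its log2 fold change was -0.28 for TSA against DMSO (SE 0.28, adjusted p = 0.475), 0.14 for E6R against DMSO (SE 0.27, adjusted p = 0.818) and 0.42 for E6R against TSA (SE 0.27, adjusted p = 0.253).

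HK2 (ENSG00000159399; chromosome 2, 74833981 to 74893359, plus strand) encodes hexokinase 2, which traps glucose in the cell as glucose 6-phosphate. It had 16.4 and 20.8 CPM under DMSO, 24.8 and 44.2 under TSA, and 29.3 and 25.2 under E6R. All treated libraries lay above both DMSO libraries. The log2 fold change for TSA was 0.89 (SE 0.32) and just missed the threshold (adjusted p = 0.0706); for E6R it was 0.55 (SE 0.32, adjusted p = 0.408). HK2 passed for TSA with the replicate number as a block (0.86, adjusted p = 0.0388), in all barcodes (1.0, adjusted p = 0.0468), without E6R replicate 1 (0.93, adjusted p = 0.0447) and without E6R replicate 2 (0.91, adjusted p = 0.0452).

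PFKP (ENSG00000067057; chromosome 10, 3066333 to 3137712, plus strand) encodes the platelet-type phosphofructokinase, the committed step of glycolysis. Its level was 59.3 and 33.3 CPM under DMSO, 65.9 and 38.9 under TSA, and 90.4 and 46.5 under E6R. The groups overlapped because replicate 1 was above replicate 2 in each of them, by 0.83, 0.76 and 0.96 on the log2 scale in the same order. No comparison passed, with adjusted p of 0.761, 0.511 and 0.483 for TSA against DMSO, E6R against DMSO and E6R against TSA.

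ALDOA (ENSG00000149925; chromosome 16, 30064164 to 30070457, plus strand) had 46 and 58 UMIs under DMSO, 576 and 978 under TSA, and 480 and 433 under E6R. On the CPM scale this was 9.77 and 11.1, 43.8 and 85.2, and 30.3 and 16.3. The TSA libraries were the highest, the E6R libraries lay between, and no groups overlapped. The log2 fold change was 2.62 for TSA against DMSO (SE 0.43, adjusted p = 0.00440), and ALDOA passed there in all 19 alternatives, with adjusted p from 2.01e-13 to 0.0373. For E6R against DMSO it was 1.15 (SE 0.41, adjusted p = 0.233), and it passed without the low-count filter (1.32, adjusted p = 0.00347). For E6R against TSA it was -1.47 (SE 0.39, adjusted p = 0.0202), which lost its call without TSA replicate 2 (-0.91, adjusted p = 0.193) and without E6R replicate 2 (-1.06, adjusted p = 0.0520). The protein-coding gene AC093512.2 overlaps ALDOA on the same strand and shares 42.3% of its exon bases. The sources used here do not say how reads matching both genes were counted, and AC093512.2 itself had 1 to 21 UMIs per library, so the ALDOA values are uncertain and may not cover the whole gene.

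PKM (ENSG00000067225; chromosome 15, 72199029 to 72231822, minus strand) had 1453 and 1259 CPM under DMSO, 2482 and 2373 under TSA, and 1617 and 1556 under E6R. Both TSA libraries lay well above the other 4, and the E6R libraries lay just above the DMSO libraries. PKM rose under TSA, with a log2 difference of 0.84 (SE 0.20, adjusted p = 0.0174), and for E6R against DMSO the value was 0.23 (SE 0.20, adjusted p = 0.586). It was lower under E6R than under TSA (-0.61, SE 0.20, adjusted p = 0.0424). For TSA against DMSO the call was lost with total counts only (0.53, adjusted p = 0.0917), without DMSO replicate 2 (0.66, adjusted p = 0.113), without TSA replicate 1 (0.84, adjusted p = 0.0925) and without TSA replicate 2 (0.91, adjusted p = 0.0818). For E6R against TSA it passed in 7 of 19 alternatives and lost its call whichever library was left out, with log2 fold changes of -0.65 to -0.50 and adjusted p of 0.0760 to 0.177. The M1 and M2 splice forms of PKM are counted together here.

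PGAM1 (ENSG00000171314; chromosome 10, 97426160 to 97433441, plus strand) had 272 and 199 CPM under DMSO, 202 and 166 under TSA, and 463 and 344 under E6R. Both E6R libraries were above all others, and DMSO and TSA overlapped. PGAM1 was higher under E6R than under TSA, with a log2 difference of 1.13 (SE 0.25, adjusted p = 0.00952), a call lost without TSA replicate 2 (1.0, adjusted p = 0.0936). The value was 0.77 for E6R against DMSO (SE 0.25, adjusted p = 0.218), which passed without the low-count filter (0.94, adjusted p = 0.0121), and -0.36 for TSA against DMSO (SE 0.25, adjusted p = 0.30).

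**Figure D3:**
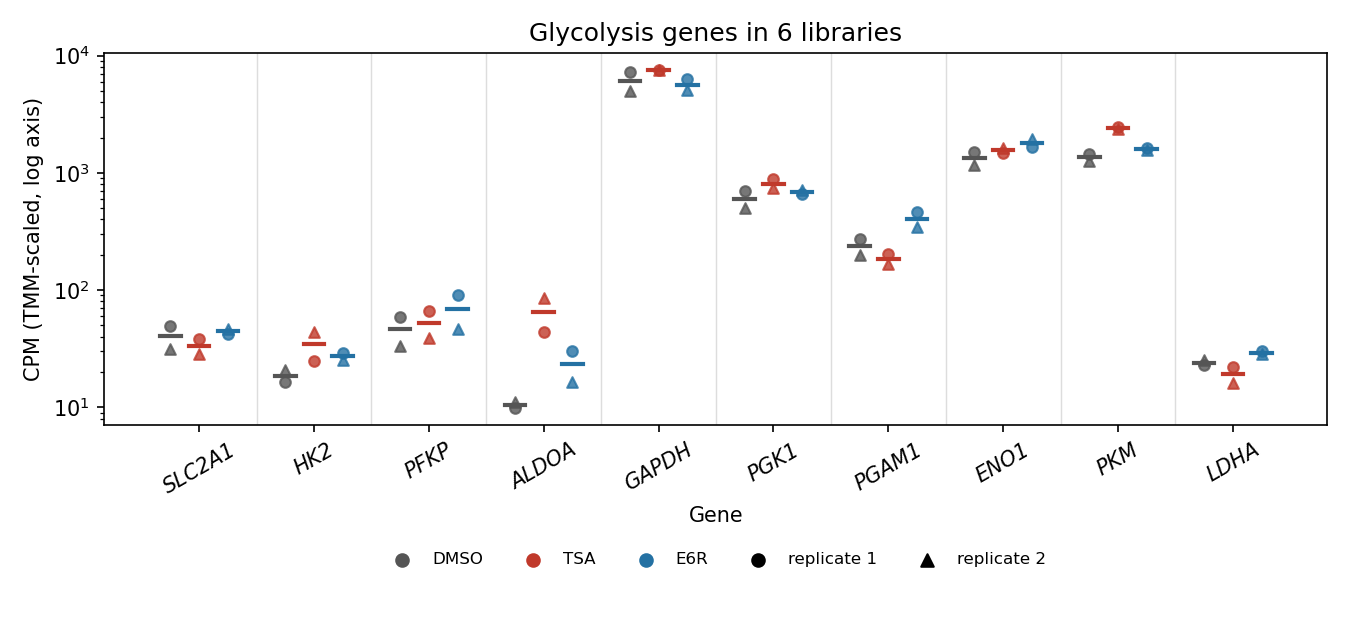
Level of the 10 glycolysis genes (y, CPM on a log axis) in the 6 libraries; circles are replicate 1, triangles replicate 2 and bars the mean of the 2. TSA libraries lie above all others for ALDOA, PKM, GAPDH and PGK1. E6R libraries do so for PGAM1, at 344 and 463 CPM, and for ENO1 and LDHA. Only ALDOA, PKM and PGAM1 were called in a comparison.

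The remaining enzymes of the lower pathway did not pass in any comparison. GAPDH (ENSG00000111640; chromosome 12, 6533927 to 6538374, plus strand), the dehydrogenase that is also a common reference gene, had 7231 and 4994 CPM under DMSO, 7495 and 7558 under TSA, and 6269 and 5049 under E6R. The E6R range lay inside the DMSO range, and the TSA libraries agreed closely. Its log2 fold change was 0.30 for TSA against DMSO (SE 0.26, adjusted p = 0.399) and -0.11 for E6R against DMSO (SE 0.25, adjusted p = 0.852). On the opposite strand AC006064.4 shares 14.2% of the exon bases of GAPDH and had 203 to 3008 UMIs per library, where GAPDH had 26114 to 134209; without a stated strand rule the reads of the 2 genes cannot be told apart.

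PGK1 (ENSG00000102144; chromosome X, 77910739 to 78129296, plus strand), the first ATP-yielding kinase, had 699 and 499 CPM under DMSO, 880 and 741 under TSA, and 665 and 713 under E6R. Both TSA libraries were above all others by a small margin, and TSA against DMSO gave 0.44 on the log2 scale (SE 0.23, adjusted p = 0.186). E6R against DMSO gave 0.20 (SE 0.23, adjusted p = 0.684).

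ENO1 (ENSG00000074800; chromosome 1, 8861000 to 8879250, minus strand), the enolase present in most tissues, had 1506 and 1171 CPM under DMSO, 1490 and 1616 under TSA, and 1661 and 1961 under E6R. The E6R libraries were the highest, and the TSA and DMSO libraries overlapped. For E6R against DMSO the log2 fold change was 0.44 (SE 0.22, adjusted p = 0.347), and for TSA it was 0.21 (SE 0.22, adjusted p = 0.489).

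LDHA (ENSG00000134333; chromosome 11, 18394388 to 18408425, plus strand), the lactate dehydrogenase subunit that favours lactate formation, had 22.9 and 25.1 CPM under DMSO, 22.0 and 16.1 under TSA, and 30.1 and 28.4 under E6R. The 3 groups did not overlap: TSA was lowest and E6R highest. The differences were within the spread that the model allows, with -0.33 for TSA against DMSO (SE 0.25, adjusted p = 0.339), 0.29 for E6R against DMSO (SE 0.25, adjusted p = 0.576) and 0.62 for E6R against TSA (SE 0.24, adjusted p = 0.0782). The last passed with total counts only (0.79, adjusted p = 0.0433) and without the low-count filter (0.86, adjusted p = 0.0246). GENCODE 29 names 94 pseudogenes after 8 of the 10 genes, 62 of them after GAPDH and 6 after LDHA. None of these pseudogenes is among the features of the files, so how reads shared with them were counted cannot be seen from the counts.

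The share of cells with a UMI was compared next. In thinned cells PKM was detected in 76.0% and 72.0% of cells under DMSO, 85.2% and 83.7% under TSA, and 78.7% and 74.8% under E6R. PGAM1 was detected in 22.5% and 18.3% under DMSO, 17.2% and 11.4% under TSA, and 33.4% and 23.5% under E6R. ALDOA was detected in 1.01% and 1.25% under DMSO, 3.51% and 7.03% under TSA, and 2.82% and 1.80% under E6R. For each of these 3 genes the group means of the share and of the CPM had the same order. PGK1, PFKP and ENO1 differed. Mean thinned shares of PGK1 were 46.1% under DMSO, 47.6% under TSA and 45.5% under E6R, beside mean CPM of 599, 810 and 689. Those of PFKP were 4.90%, 4.09% and 5.78%, beside 46.3, 52.4 and 68.4 CPM. ENO1 was detected in 81.6% and 70.7% of thinned cells under DMSO, 69.0% and 71.5% under TSA, and 80.4% and 83.5% under E6R. Unthinned, ENO1 was detected in 83.8% and 73.0%, 83.3% and 85.9%, and 90.7% and 87.7%. Its thinned share was not higher under TSA than under DMSO, where its mean CPM was. These use unlike scales, as thinning sets each cell to the same total and the CPM are TMM-scaled. With total counts only, the ENO1 log2 fold change for TSA against DMSO was -0.10, beside 0.21 with TMM. No order of the groups was read from the shares of ENO1, PGK1 or PFKP. The exact 95% binomial interval of a share was at most 5.77 percentage points wide, and it covers counting error only.

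Without thinning, where deeper libraries show more positive cells, PKM was found in 81.8% and 75.4% of DMSO cells, 92.8% and 92.5% of TSA cells, and 87.4% and 81.3% of E6R cells. Unthinned shares for PGAM1 were 34.7% and 24.6%, 39.1% and 30.3%, and 57.5% and 37.7%; for ALDOA they were 2.15% and 1.79%, 14.6% and 19.7%, and 12.9% and 6.72%. The unthinned PGAM1 shares put TSA above DMSO, against the CPM, so no order was read from them. GAPDH was found in 97.4% to 99.7% of thinned cells and 98.5% to 99.8% of all cells. SLC2A1, HK2, PFKP and LDHA were each found in 1.36% to 8.09% of thinned cells, near the level of single UMIs.

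As a measure of background, the 12 markers of other cell types had a median share of positive cells of 0% to 0.162% per library, unthinned. Every one of the 10 glycolysis genes lay above that median in every library, ALDOA lowest at 1.79% in DMSO replicate 2. The most detected of the 12 markers, which was ALB in DMSO replicate 2 and COL1A1 or COL3A1 in the others, reached 1.15% to 14.1% per library. In DMSO replicate 1 COL3A1 reached 6.02%, above the unthinned share of ALDOA (2.15%), HK2 (3.76%) and LDHA (5.10%) there. No cell type without glycolysis is present in a culture of 1 line, so the background could not be measured in such cells. Median depth was 1054 to 1880 UMIs per cell.

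**Figure D4:**
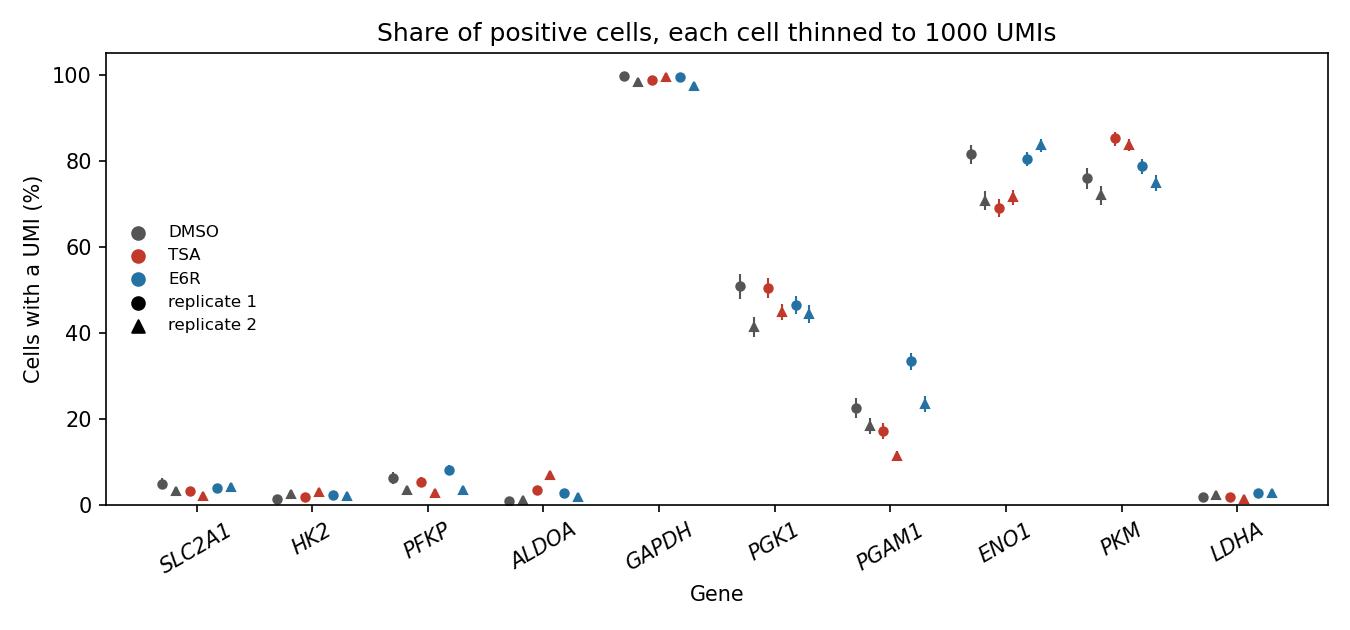
Share of cells with at least 1 UMI of each gene (y, percent) after thinning each cell to 1000 UMIs, with exact 95% binomial intervals; colours are groups, circles replicate 1 and triangles replicate 2. PKM is highest in the TSA libraries (85.2% and 83.7%) and PGAM1 in the E6R libraries (33.4% and 23.5%).

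Replicates differed in a way that some genes shared. PFKP, PGAM1 and PKM were higher in replicate 1 than in replicate 2 in all 3 groups, PKM by only 0.05 to 0.21 on the log2 scale. SLC2A1, PGK1 and GAPDH were higher in DMSO replicate 1 by 0.66, 0.49 and 0.53, and the sign of that difference was not the same in all groups for any of the 3. By the largest correlation over the 6 libraries with the mean centred log2 CPM of the 10 genes, the most similar of 7450 genes outside the lists were NES (r = 0.987), SF3B1 (0.984), TRAPPC8 (0.983), STT3A (0.981), SGK1 (0.977) and COQ7 (0.977). NES encodes the intermediate filament nestin, and it had 148 and 107 CPM under DMSO, 292 and 244 under TSA, and 293 and 207 under E6R. These correlations are over 6 libraries that share group and depth, and they carry no test.

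Other genes of the same pathway were counted in the same way. Of 15 other glycolysis genes, 3 rose under TSA and none fell, with a median log2 fold change of 0.47, beside the 16.2% of all genes called higher. They were ALDOC, the brain-type aldolase, SLC2A3, the high-affinity glucose transporter GLUT3, and PFKM, the muscle-type phosphofructokinase. None of the 15 passed for E6R against DMSO, the smallest adjusted p being 0.237. An unadjusted p under 0.05 was seen for 2, beside 2913 of all 16763 genes tested. Against TSA, E6R had 3 of the 15 lower (ALDOC, SLC2A3 and PFKFB4) and 1 higher (LDHB), beside 19.5% of all genes called lower and 18.7% higher.

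ALDOC had 16.4 and 16.3 CPM under DMSO, 119 and 132 under TSA, and 12.4 and 12.9 under E6R. Its log2 fold change was 2.94 for TSA against DMSO (adjusted p = 0.000489) and -3.31 for E6R against TSA (adjusted p = 0.000228), both called in all 19 alternatives. SLC2A3 had 8.71 and 5.36 CPM under DMSO, 30.4 and 19.7 under TSA, and 8.09 and 5.57 under E6R.

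The TSA libraries were above all others for both genes. SLC2A3 rose under TSA by 1.84 on the log2 scale (adjusted p = 0.0119), and lost its call without DMSO replicate 2 (1.45, adjusted p = 0.0866) and without TSA replicate 1 (1.51, adjusted p = 0.102). It was lower under E6R than under TSA (-1.88, adjusted p = 0.00657), a call lost without TSA replicate 1 (-1.52, adjusted p = 0.0745). UMIs of SLC2A1 per UMI of SLC2A3 were 5.68 and 5.86 under DMSO, 1.25 and 1.46 under TSA, and 5.23 and 8.42 under E6R, so the ratio of the transporters was lower in both TSA libraries than in the other 4.

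PFKM rose from 49.9 and 44.0 CPM under DMSO to 81.7 and 73.2 under TSA (log2 fold change 0.72, adjusted p = 0.0237), with 65.9 and 67.7 under E6R. The call was lost without each DMSO or TSA library, with adjusted p of 0.0634 and 0.176 without DMSO replicates 1 and 2 and of 0.140 and 0.0896 without TSA replicates 1 and 2, and with total counts only (0.41, adjusted p = 0.157). It was also lost without the low-count filter (0.64, adjusted p = 0.0744) and in thinned cells (0.64, adjusted p = 0.0599). PFKL, the liver-type enzyme of the same step, had 73.2 to 87.2 CPM in the DMSO and TSA libraries and 59.7 and 75 under E6R, with no call.

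LDHB, the lactate dehydrogenase subunit that favours pyruvate, had 962 and 744 CPM under DMSO, 704 and 554 under TSA, and 1300 and 1222 under E6R. It was higher under E6R than under TSA (1.0, adjusted p = 0.0110), a call lost without TSA replicate 2 (0.84, adjusted p = 0.105), and its order of groups was that of LDHA. The gene AC010197.2, which is not among the features of the files, shares 33.4% of the exon bases of LDHB on the same strand. UMIs of LDHA per UMI of LDHB were 0.0232 to 0.0337 over the 6 libraries. PFKFB4, which makes an activator of phosphofructokinase, was lower under E6R than under TSA (-1.29, adjusted p = 0.0307), with 9.57 and 8.71 CPM under TSA and 2.78 and 4.63 under E6R; it passed in 11 of 19 alternatives, not without TSA replicate 1 (-1.22, adjusted p = 0.163), TSA replicate 2 (-1.36, adjusted p = 0.133), DMSO replicate 2 (-1.18, adjusted p = 0.0567) or E6R replicate 1 (-0.91, adjusted p = 0.109).

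TPI1, HK1, GPI and ENO2 passed in no comparison as fitted. For E6R against TSA, GPI passed without the low-count filter (0.65, adjusted p = 0.0377) and TPI1 with the replicate block (-0.52, adjusted p = 0.0449). TPI1, the triose phosphate isomerase, had 1132 and 969 CPM under DMSO, 1520 and 1549 under TSA, and 1082 and 1064 under E6R, with the TSA libraries above the rest (0.55 against DMSO, SE 0.20, adjusted p = 0.0698). TPI1 passed for TSA with the replicate block (0.55, adjusted p = 0.0422), with DESeq2 (0.54, adjusted p = 0.0258) and in all barcodes (0.69, adjusted p = 0.0345). HK1, the hexokinase of most resting tissues, had 149 and 189 CPM under DMSO, 248 and 262 under TSA, and 241 and 201 under E6R, with 0.59 for TSA (SE 0.21, adjusted p = 0.0657); it passed with the block (0.59, adjusted p = 0.0480), with DESeq2 (0.59, adjusted p = 0.0444), in all barcodes (0.71, adjusted p = 0.0450) and without E6R replicate 1 (0.63, adjusted p = 0.0418).

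UMIs of HK2 per UMI of HK1 were 0.110 and 0.110 under DMSO, 0.100 and 0.169 under TSA, and 0.122 and 0.125 under E6R. GPI, which isomerizes glucose 6-phosphate, had 308 to 474 CPM over all libraries, and ENO2, the neuronal enolase, had 32.9 to 130 CPM. ENO2 was higher in replicate 2 in all 3 groups, opposite to PFKP.

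**Figure D5:**
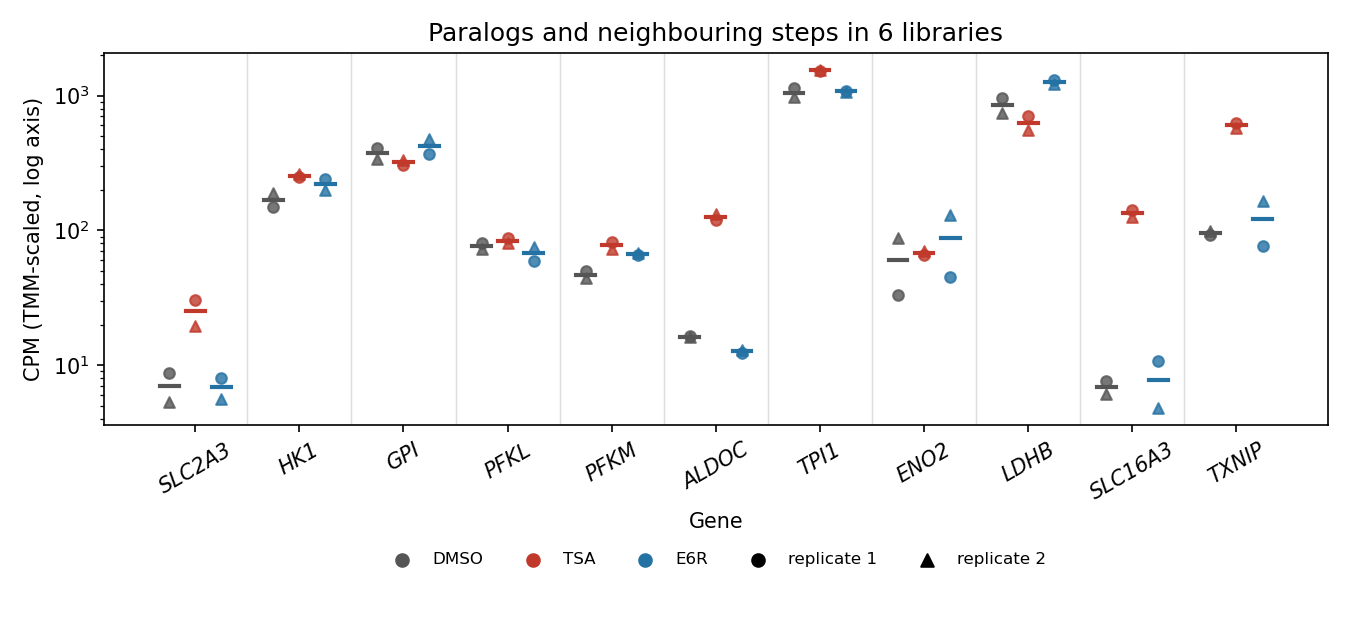
Level (y, CPM on a log axis) of paralogs and of genes of neighbouring steps in the 6 libraries; circles are replicate 1, triangles replicate 2 and bars the mean of the 2. The TSA libraries lie above all others for SLC2A3, ALDOC, SLC16A3 and TXNIP, and by less for HK1, PFKL, PFKM and TPI1. ALDOC had 119 and 132 CPM there and at most 16.4 elsewhere.

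Of 15 tissue-restricted paralogs, 10 did not pass the low-count filter, and none of the 5 tested passed for E6R against DMSO. An unadjusted p under 0.05 was seen there for 2, beside 2913 of all 16763 genes tested. SLC2A4, the insulin-responsive transporter of muscle and fat, had 2 and 7 UMIs under DMSO, 113 and 102 under TSA, and 9 and 19 under E6R. It rose under TSA (3.27, adjusted p = 0.00604), a call lost without TSA replicate 2 (3.29, adjusted p = 0.0525). SLC2A4 was lower under E6R than under TSA (-3.73, adjusted p = 0.00182).

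Genes for the fate of pyruvate and lactate had 4 of 12 tested members higher under TSA and none lower, beside 16.2% of all genes called higher, with a median of 0.56. SLC16A3, the lactate exporter MCT4, had 7.65 and 6.12 CPM under DMSO, 142 and 126 under TSA, and 10.7 and 4.78 under E6R. Its log2 fold change under TSA was 4.28 (SE 0.41, adjusted p = 0.000918) and was lower under E6R than under TSA (-4.13, SE 0.39, adjusted p = 0.000465), both in all 19 alternatives. Its exons overlap CSNK1D on the other strand over 5.36% of their bases.

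DLD, a subunit of pyruvate dehydrogenase, rose under TSA (0.90, adjusted p = 0.0106), which was lost with total counts only (0.59, adjusted p = 0.0563), without DMSO replicate 2 (adjusted p = 0.0845), without TSA replicate 1 (0.0773) and without TSA replicate 2 (0.0517). PDHA1, another subunit, rose as well (0.65, adjusted p = 0.0369) and is named after its values were seen; it passed in 10 of 19 alternatives and in none that left out a DMSO or TSA library (adjusted p 0.0710 to 0.236). PDK3, a kinase that inhibits that enzyme, rose (0.88, adjusted p = 0.0478) and passed in 5 of 19 alternatives, in none that left out a DMSO or TSA library (adjusted p 0.157 to 0.194). None of the 12 passed for E6R against DMSO, with 3 at an unadjusted p under 0.05, beside 2913 of all 16763 genes tested. Under E6R 2 were lower than under TSA, SLC16A3 and PDK3, beside 19.5% of all genes. PDK3 was lower there by -0.99 (adjusted p = 0.0229) and passed in 12 of 19 alternatives; its call was lost with total counts only (adjusted p = 0.0503), without the low-count filter (0.161), without the largest cells (0.0976), and without TSA replicates 1 (adjusted p = 0.130) and 2 (0.137), DMSO replicate 2 (0.0534) and E6R replicate 2 (0.0736).

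The pentose phosphate pathway branches off glycolysis at glucose 6-phosphate. Its sugar-exchange enzymes TALDO1 (1.18, adjusted p = 0.00664) and TKT (0.82, adjusted p = 0.0155) rose under TSA. TALDO1 lost its call without DMSO replicate 2 (0.88, adjusted p = 0.0595) and without TSA replicate 2 (1.19, adjusted p = 0.0521), and TKT with total counts only (0.50, adjusted p = 0.0879) and without DMSO replicate 2 (0.66, adjusted p = 0.115), TSA replicate 1 (0.87, adjusted p = 0.0748) and TSA replicate 2 (0.83, adjusted p = 0.0900).

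None of the 7 genes tested in this pathway passed for E6R against DMSO. An unadjusted p under 0.05 was seen for 1, beside 2913 of all 16763 genes tested. The isomerase RPIA (1.31, adjusted p = 0.0220) and the epimerase RPE (1.08, adjusted p = 0.0161) were higher under E6R than under TSA. TALDO1 was lower by -0.70 (adjusted p = 0.0326), passed in 11 of 19 alternatives and lost its call whichever library was left out, except DMSO replicate 1 (adjusted p 0.0595 to 0.162). RPIA lost its call in thinned cells (1.17, adjusted p = 0.0993), without TSA replicate 1 (1.40, adjusted p = 0.112) and without TSA replicate 2 (1.24, adjusted p = 0.158), and RPE without TSA replicate 2 (0.79, adjusted p = 0.131).

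Of the gluconeogenesis genes 5 of 7 were tested. PC, the pyruvate carboxylase, rose from 20 and 21.6 CPM under DMSO to 80.4 and 87.8 under TSA (2.01, adjusted p = 0.00110), and had 28.8 and 25.8 under E6R (-1.62 against TSA, adjusted p = 0.00102); both calls held in all 19 alternatives. PCK2, the mitochondrial phosphoenolpyruvate carboxykinase, was higher under E6R than under TSA (1.89, adjusted p = 0.00425), with 59.0 and 108 against 25.4 and 19.8 CPM, a call lost without TSA replicate 2 (1.71, adjusted p = 0.0504).

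Hypoxia-inducible genes outside glycolysis had 11 tested members, of which 4 rose and 1 fell under TSA, with a median of 0.98, beside 16.2% of all genes called higher and 13.5% lower. BNIP3, a mitophagy receptor, had 67.3 and 79.0 CPM under DMSO, 144 and 243 under TSA, and 80.4 and 85.4 under E6R (1.40, adjusted p = 0.00791), and lost its call without DMSO replicate 1 (1.33, adjusted p = 0.0528) and without TSA replicate 2 (1.02, adjusted p = 0.0534). KDM3A, a histone demethylase, rose by 1.10 (adjusted p = 0.0379) and BNIP3L, a relative of BNIP3, by 1.07 (adjusted p = 0.0428); neither passed whichever DMSO or TSA library was left out, with adjusted p of 0.0750 to 0.225 for KDM3A and 0.0946 to 0.227 for BNIP3L. Over all alternatives KDM3A passed in 11 of 19 and BNIP3L in 8 of 19. In thinned cells KDM3A had 0.54 (adjusted p = 0.256). MXI1, a MYC antagonist named after its values were seen, rose by 0.98 (adjusted p = 0.0437) and passed in 10 of 19 alternatives, with adjusted p up to 0.259. Among the losses were the fits without DMSO replicate 2 (0.58, adjusted p = 0.259), TSA replicate 1 (1.04, adjusted p = 0.149) and TSA replicate 2 (0.99, adjusted p = 0.167). The one that fell was EGLN1, the oxygen-sensing prolyl hydroxylase, named because of that count after its values were seen. EGLN1 had 45.0 and 48.0 CPM under DMSO and 24.0 and 22.6 under TSA (-1.0, adjusted p = 0.0125), and did not pass whichever of these libraries was left out (adjusted p 0.0553 to 0.111).

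No gene of these 11 passed for E6R against DMSO, with 1 at an unadjusted p under 0.05, beside 2913 of all 16763 genes tested. Under E6R, 3 were lower than under TSA, beside 19.5% of all genes, and EGLN1 was higher (1.26, adjusted p = 0.00339, in all 19 alternatives). BNIP3 was lower by -1.22 (adjusted p = 0.00902), which was lost without TSA replicate 2 (-0.80, adjusted p = 0.0751). BNIP3L was lower by -1.40 (adjusted p = 0.0119), a call lost without TSA replicate 1 (-1.15, adjusted p = 0.0961). NDRG1 was lower by -1.93 (adjusted p = 0.0468), with 5.55 and 2.00 CPM under TSA and 1.07 and 0.903 under E6R, and passed in 4 of 18 alternatives and in none that left out a library (adjusted p 0.0528 to 0.395).

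Among 11 regulators of glucose use and hypoxia, 2 rose under TSA, a share near the 16.2% of all genes called higher. TXNIP, the thioredoxin-interacting protein that restrains glucose uptake, had 93.1 and 99.3 CPM under DMSO, 629 and 575 under TSA, and 76.3 and 166 under E6R. It rose under TSA by 2.65 (SE 0.35, adjusted p = 0.00235) and was lower under E6R than under TSA (-2.31, SE 0.35, adjusted p = 0.00216), both in all 19 alternatives. Its relative ARRDC4 rose by 2.00 (adjusted p = 0.00445), a call lost without TSA replicate 2 (1.85, adjusted p = 0.0503), and was lower under E6R than under TSA (-2.26, adjusted p = 0.00163).

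None of the 11 regulators passed for E6R against DMSO, with 2 at an unadjusted p under 0.05, beside 2913 of all 16763 genes tested. Under E6R 4 were lower than under TSA and 1 was higher, beside 19.5% and 18.7% of all genes. ARNT, the partner of the hypoxia-inducible factors, named after its values were seen, was lower by -0.92 (adjusted p = 0.0145) and passed in 14 of 19 alternatives. Its call was lost without the low-count filter (-0.67, adjusted p = 0.105), in thinned cells (-0.68, adjusted p = 0.106), and without TSA replicate 1 (-0.98, adjusted p = 0.0725), TSA replicate 2 (-0.85, adjusted p = 0.118) and E6R replicate 2 (-0.77, adjusted p = 0.0565). MLXIPL, the glucose-sensing factor ChREBP, was lower by -3.57 (adjusted p = 0.00559) with 4.33 and 6.27 CPM under TSA and 0.190 and 0.640 under E6R, a call lost without TSA replicate 2 (-3.30, adjusted p = 0.0531). The one that was higher was HIF1A, which encodes the oxygen-regulated subunit of hypoxia-inducible factor 1 and is named after its values were seen. HIF1A had 478 and 308 CPM under DMSO, 254 and 262 under TSA, and 996 and 534 under E6R. Its log2 fold change for E6R against TSA was 1.57 (SE 0.34, adjusted p = 0.00862), and the call was lost without TSA replicate 1 (1.55, adjusted p = 0.0667) and without TSA replicate 2 (1.59, adjusted p = 0.0699). HIF1A did not pass against DMSO for TSA (-0.60, adjusted p = 0.198) or for E6R (0.96, adjusted p = 0.226).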

How the data were processed

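The submitters' processing notes name STARsolo 2.7.9a and GRCh38 and, as held here, no settings, annotation or barcode rule. The deposited matrices hold whole-number UMI counts per gene and barcode, not normalized, per the file headers. Cells were barcodes with at least 500 genes and at most 20% MT- UMIs; no doublet caller was run, and a fit without the deepest 5% of cells was tried. Counts were summed per library and tested with edgeR 4.0.16 in R 4.3.3 (TMM, filterByExpr, quasi-likelihood test, all 6 libraries in one fit, group as the only term, Benjamini-Hochberg at 0.05); standard errors come from the F statistic. The fit was also run on simulated counts in which only a small set of well-counted genes changed, in a single group at a time. Changes as broad as those called for TSA were not simulated, so that run does not bear on the scaling. Library sums held 4206366 to 26180262 UMIs, and the common biological coefficient of variation between libraries was 0.288. For genes with few UMIs, counting error limits the precision as well. Alternatives included DESeq2 1.42.0, other scalings, other cell filters, a replicate block and leaving out each library. Gene positions are from GENCODE 29, which holds 94.6% of the files' gene IDs; promoter sequences are from RefSeq's GRCh38.p14 table, in which all 10 genes matched. Named genes were the 10, 9 fixed paralogs or linking enzymes, and up to 3 called genes with the largest change per list and comparison. The genes, lists and tests were chosen with earlier results of these data known. Results of some listed genes are not reported here.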

Additional observations from a re-analysis of the deposited data

How the results depend on the processing

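Calls rest on 2 libraries a group, and the shallow DMSO sums limit low genes. When libraries were scaled by total counts alone, the median log2 fold change moved from -0.01 to -0.32 for TSA against DMSO, from 0.03 to -0.10 for E6R against DMSO and from -0.09 to 0.08 for E6R against TSA; for TSA the calls then split into 1717 higher and 3361 lower, against 2720 and 2255 with TMM. Leaving out 1 library at a time gave 1416 to 6028 genes called for TSA against DMSO (4975 with all), 0 to 3 for E6R against DMSO (0 with all) and 2628 to 6385 for E6R against TSA (6408 with all). Where a group was left with 1 library, it was assumed to vary like the others. Of the 10 genes, 1 to 3, 0 and 0 to 2 were then called, against 2, 0 and 3. The lowest count of all genes was without TSA replicate 2 in both comparisons that use it. For TSA against DMSO, 1 of the 10 was called with total counts only. For E6R against DMSO, 1095 genes and 2 of the 10 were called without the low-count filter, 415 genes with DESeq2, 19 with the replicate block, 1 in all barcodes and 1 without mitochondrial and ribosomal protein genes. For E6R against TSA, 4119 genes were called in cells thinned to 1000 UMIs, where fewer genes were tested. Without mitochondrial and ribosomal protein genes the 10 genes' share of UMIs differed by -0.197 percentage points between E6R and TSA, against -0.0903. The cause of these shifts was not tested.

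With the replicate block, 6047 genes were called for TSA against DMSO and 7567 for E6R against TSA, and 3 of the 10 genes in each. The labels give only a shared number, and the difference of replicate 1 and 2 correlated between groups with r of 0.24 for DMSO and TSA, 0.56 for DMSO and E6R and 0.17 for TSA and E6R over 7515 genes.

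No called value changed sign. Some fitted values that were not called did. For TSA against DMSO with total counts only, the log2 fold change was -0.12 for PFKP, -0.014 for GAPDH, -0.10 for ENO1, -0.13 for ENO2 and -0.18 for PFKL, and PFKL had -0.097 in thinned cells. Leaving out 1 library gave a range of -0.64 to 0.13 for SLC2A1, -0.25 to 0.69 for PFKP, -0.020 to 0.63 for GAPDH, -0.035 to 0.45 for ENO1, -0.33 to 0.97 for ENO2 and -0.0075 to 0.23 for PFKL.

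For E6R against DMSO, GAPDH had 0.053 without the low-count filter and 0.037 in all barcodes, PGK1 had -0.016 in thinned cells, and SLC2A3 had 0.12 without the filter, 0.027 with DESeq2 and 0.013 with at least 1000 genes. TPI1 had -0.10 with total counts only, -0.023 with at least 1000 genes, -0.031 with at most 10% mitochondrial UMIs, -0.076 in thinned cells and -0.0096 with only the 4 libraries compared. Leaving out 1 library gave -0.11 to 0.64 for SLC2A1, -0.31 to 0.32 for GAPDH, -0.037 to 0.28 for TPI1, -0.39 to 1.44 for ENO2, -0.32 to 0.078 for PFKL and -0.31 to 0.48 for SLC2A3. For E6R against TSA without the low-count filter, PGK1 had 0.013, HK1 0.044 and PFKM 0.035. Leaving out 1 library there gave -0.69 to 0.14 for HK2, -0.10 to 0.82 for PFKP and -0.58 to 1.0 for ENO2.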
